A study of Mus musculus with 12 samples.

Results

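The genes described here are 10 regulators of the G1 phase of the cell cycle in mouse T cells: the D-type cyclin genes Ccnd2 and Ccnd3, the kinase genes Cdk4, Cdk6 and Cdk2, the inhibitor genes Cdkn1b, Cdkn2c and Cdkn2d, and the pocket protein genes Rb1 and Rbl1. They were chosen by symbol, with earlier results of these data known, from the deposited table of raw read counts, which holds 53762 symbols. All 10 of 10 were found, and all 10 were among the 16945 genes that passed the filter on low counts. The libraries were made from T cells of mouse spleen after co-culture for 24 h or 48 h with a partner cell labelled Res. The partner carried either a control construct (Res_ctrl) or the construct labelled shFabp7 (Res_shFabp7, a hairpin named for the fatty acid binding protein gene Fabp7). These are called control and shFabp7 co-cultures here, and the difference between them the partner difference. Each of the 4 groups, 2 partners at 2 times, held 3 libraries. All 12 were from cells kept in RPMI-1640 medium with antibiotics and heat-inactivated serum, and the hairpin was carried by the partner, not by the T cells. The strain and age of the mice, the sort and stimulation of the T cells, the number of clones behind each partner line and the origin of the 3 libraries of a group are not given in the sources used here. The p-values therefore measure only the spread between these libraries, which may be technical.

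A cell that leaves rest passes through G1 before it copies its DNA. D-type cyclins bind the kinases CDK4 and CDK6, and later cyclin E binds CDK2. These complexes phosphorylate the pocket proteins RB1, RBL1 (also called p107) and RBL2, which hold E2F transcription factors in check, so that E2F target genes for DNA synthesis can be transcribed. INK4 inhibitors, among them CDKN2C and CDKN2D, bind CDK4 and CDK6, while CIP/KIP inhibitors such as CDKN1B bind cyclin-CDK complexes and restrain CDK2. In T cells, cyclins D2 and D3 are the D-type cyclins in general use, and CDKN1B protein is high in resting cells and is degraded after stimulation. The counts report RNA only. Phosphorylation and protein turnover, by which much of this pathway is controlled, are not seen by them.

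Promoter sequence was looked up for the 10 genes in a RefSeq table on GRCm38.p6, another build than the GRCm39 named in the submitters' processing notes. The table held windows for 8 of the 10 genes, 10 windows in all, and the 250 bases before each start were searched on both strands for the E-box CACGTG, the core recognised by MYC and its relatives, and for the E2F sequences TTCCCGC or TTGGCGC. Of 32851 windows of that length in the table, 6.02% held the E-box and 5.62% an E2F sequence. The E-box occurred in windows of Cdk4 and Cdk6, and an E2F sequence in windows of Cdk2 and Cdkn2c. The windows of Ccnd3, Cdkn1b, Cdkn2d and Rbl1 held none of these exact sequences. Other forms of the E2F site were not searched, so this does not show that a window lacks such a site. The 4 windows that held a motif are shown, 5′ to 3′ on the gene's strand and ending at the base before the start, with each motif (in either orientation) in capitals.
Cdk4, chr10:127063285-127063534, plus strand: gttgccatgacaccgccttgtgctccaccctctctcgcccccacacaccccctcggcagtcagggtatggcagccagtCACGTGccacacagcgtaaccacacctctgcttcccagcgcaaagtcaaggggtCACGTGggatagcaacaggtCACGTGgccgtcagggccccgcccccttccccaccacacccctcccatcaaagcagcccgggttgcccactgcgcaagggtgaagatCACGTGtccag
Cdk6, chr5:3343643-3343892, plus strand: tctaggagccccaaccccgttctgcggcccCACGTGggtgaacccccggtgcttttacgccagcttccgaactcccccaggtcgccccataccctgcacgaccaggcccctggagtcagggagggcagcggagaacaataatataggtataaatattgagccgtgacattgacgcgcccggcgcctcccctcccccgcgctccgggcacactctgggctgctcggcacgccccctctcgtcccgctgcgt
Cdk2, chr10:128705052-128705301, minus strand: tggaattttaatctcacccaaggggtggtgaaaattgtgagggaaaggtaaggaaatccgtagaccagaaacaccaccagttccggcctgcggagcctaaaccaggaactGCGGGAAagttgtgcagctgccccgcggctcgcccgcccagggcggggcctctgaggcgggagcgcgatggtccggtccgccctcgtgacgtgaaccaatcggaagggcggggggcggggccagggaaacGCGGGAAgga
Cdkn2c, chr4:109666757-109667006, minus strand: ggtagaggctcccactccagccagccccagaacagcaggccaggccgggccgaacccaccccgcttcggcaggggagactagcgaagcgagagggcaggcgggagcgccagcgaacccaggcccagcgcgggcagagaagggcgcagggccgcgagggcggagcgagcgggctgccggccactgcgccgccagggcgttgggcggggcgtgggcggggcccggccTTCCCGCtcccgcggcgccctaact
The first bases of the 4 E-boxes of Cdk4 lie 172, 118, 98 and 11 bases before the start, and that of Cdk6 lies 220 bases before it. The E2F sequences of Cdk2 lie 140 and 10 bases before the start, and that of Cdkn2c 25 bases before the more distant of its annotated starts. A match describes the letters in the window and shows neither binding nor regulation.

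Library totals ran from 31952873 to 40638685 counts, and every pair of libraries in a group differed by more than counting noise. Levels are given as CPM, read counts divided by the library size after TMM scaling (a normalisation between libraries), and, where genes are compared with each other, as CPM per kb of annotated exon. All 12 of 12 T cell markers were detected, with a summed level of 3890 to 4100 CPM at 24 h and 2940 to 3030 CPM at 48 h. The 6 B cell markers summed to 11.0 to 21.3 CPM over the 12 libraries, the 6 monocyte and macrophage markers to 11.2 to 16.8 CPM, the 6 neutrophil markers to 1.95 to 11.4 CPM, the 4 erythroid markers to 0.808 to 1.81 CPM and the 7 epithelial and fibroblast markers to 7.3 to 13.2 CPM. The 6 dendritic markers went from 5.81 to 7.49 CPM at 24 h to 18.9 to 22.3 CPM at 48 h, with Siglech at 0 counts in both 48 h groups. Itgax and Batf3 carried that rise, from 2.49 to 9.81 CPM and from 2.03 to 9.54 CPM in control co-cultures, while Flt3 fell from 1.97 to 1.28 CPM and the group means of Xcr1 and Clec9a were 0 to 0.116 CPM. Clec9a was at 0 in shFabp7 co-cultures at 24 h, Ly6g in control co-cultures at 24 h, and Col3a1 in every group but the control co-cultures at 48 h. The 4 NK markers summed to 137 to 163 CPM, nearly all of it Eomes (group means 140 to 154 CPM), which T cells also express, while the NK receptor genes Ncr1, Klrb1c and Klra8 averaged 0.00858 to 0.688 CPM over the groups. At 48 h the neutrophil markers summed to 3.32 to 8.48 CPM in control and 1.95 to 3.58 CPM in shFabp7 co-cultures, and the epithelial and fibroblast markers to 9.44 to 11.0 and 7.3 to 8.81 CPM. The part of these small amounts of other RNA in the partner differences was not tested.

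The largest differences among the 10 genes were with time. For Cdkn1b and Cdk6, though, the partner difference at 48 h (-0.48 and 0.34 on the log2 scale) was larger in size than the time difference with either partner. From 24 h to 48 h in control co-cultures, all 10 genes changed: Ccnd3, Cdk2, Cdkn2c, Cdkn2d and Rb1 rose, and Ccnd2, Cdk4, Cdk6, Cdkn1b and Rbl1 fell. Over all genes tested, 67.7% were called in that comparison (edgeR quasi-likelihood test, Benjamini-Hochberg adjusted p below 0.05), 35.8% higher and 32.0% lower. In shFabp7 co-cultures, 9 of the 10 changed over time, beside 66.1% of all genes (35.9% higher and 30.2% lower), and these 9 moved in the same direction as in control co-cultures. At 48 h, 8 of the 10 differed between partners, beside 31.6% of all genes. Ccnd2, Ccnd3, Cdk4, Cdk6 and Cdk2 were higher in shFabp7 co-cultures, beside 19.9% of all genes called higher, and Cdkn1b, Cdkn2d and Rbl1 were lower, beside 11.6% called lower. At 24 h, 3 of the 10 differed, beside 10.9% of all genes: Cdk4 was higher (6.22% of all genes were) and Cdkn1b and Rbl1 were lower (4.65% were). The median size of the partner difference over the 10 genes was 0.12 at 24 h and 0.17 at 48 h on the log2 scale, against 0.15 and 0.21 over all genes. Over time it was 0.66 with each partner, against 0.5 and 0.48 over all genes. Because the 10 genes were chosen with earlier results known, these comparisons with all genes are descriptions and not a test of the set.

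The scaling of the libraries bears on all of these values. Under TMM the median gene moved over time by 0.044 (control co-cultures) and 0.061 (shFabp7 co-cultures) on the log2 scale. With library totals alone these medians were 0.233 and 0.21, and time differences smaller than this shift can change direction with the scaling. In the partner comparison at 48 h, library totals gave 2157 genes higher and 3168 lower in shFabp7 co-cultures, whereas TMM gave 3380 higher and 1972 lower. At 24 h the corresponding numbers were 604 and 1214 with totals, and 1054 and 788 with TMM. The libraries are bulk samples, so a smaller share of cells that express a gene and less RNA per cell cannot be told apart. Cd4 averaged 459 and 428 CPM at 24 h (control, then shFabp7 co-cultures) and 562 and 561 CPM at 48 h. Cd8a averaged 353 and 336 CPM at 24 h and 161 and 138 CPM at 48 h, with 48 h libraries at 157 to 165 CPM in control co-cultures and 135 to 142 CPM in shFabp7 co-cultures. Of the 12 T cell markers, 5 were called lower and 1 higher in shFabp7 co-cultures at 48 h, beside 11.6% and 19.9% of all genes. At 24 h 1 was called higher and none lower, beside 6.22% and 4.65%. The part of these shifts in the results below was not tested.

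**Figure D1:**
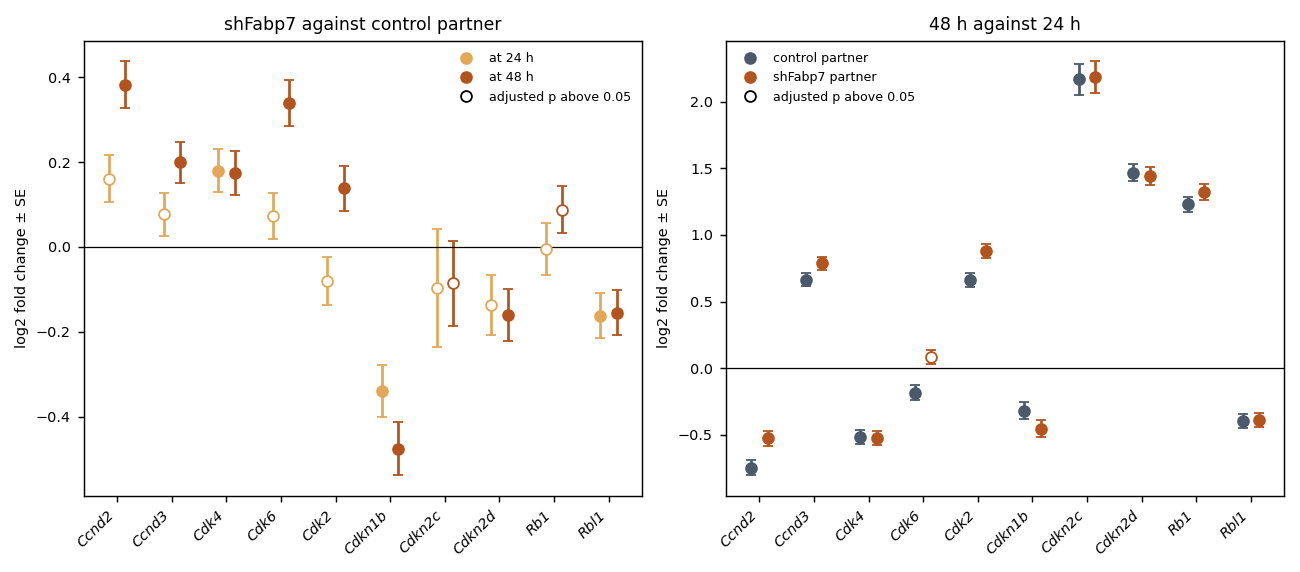
Log2 fold change ± SE of the 10 genes, shFabp7 against control partner (left, at 24 h and 48 h) and 48 h against 24 h (right, with each partner); open symbols have an adjusted p above 0.05. The y axes of the panels differ: partner differences lie between -0.48 and 0.38, time differences between -0.75 and 2.18.

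Ccnd2 and Ccnd3 encode the D-type cyclins that activate CDK4 and CDK6. Ccnd2 was the most abundant of the 10 genes in every group, and ranked 162nd of 16444 genes by CPM per kb in control co-cultures at 24 h and 231st at 48 h. Its libraries read 2000, 2100 and 2120 CPM in control and 2430, 2320 and 2210 CPM in shFabp7 co-cultures at 24 h. At 48 h the values were 1330, 1180 and 1200 CPM and 1580, 1620 and 1630 CPM. Every shFabp7 co-culture lay above every control co-culture of its time, and every 48 h library lay below every 24 h library. At 48 h the difference between partners was 0.38 ± 0.05 (log2 ± SE, adjusted p = 1.5e-06). At 24 h it was 0.16 ± 0.05 and just missed the threshold (adjusted p = 0.0516). It passed there under RLE scaling (adjusted p = 0.022) and in DESeq2 (adjusted p = 0.00239). With upper-quartile scaling and library totals it did not pass. Over all settings and left-out libraries the 24 h value ran from 0.12 to 0.21. Over time Ccnd2 fell by 0.75 ± 0.05 in control co-cultures (adjusted p = 5.2e-14) and by 0.53 ± 0.05 in shFabp7 co-cultures (adjusted p = 2.5e-10).

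Ccnd3 went the other way over time. Its control co-cultures read 216, 207 and 211 CPM at 24 h and 354, 325 and 324 CPM at 48 h. Its shFabp7 co-cultures read 225, 215 and 227 CPM at 24 h and 374, 385 and 392 CPM at 48 h. The 48 h libraries all lay above the 24 h libraries, while partners overlapped at 24 h and separated at 48 h. The rise was 0.66 ± 0.05 in control co-cultures (adjusted p = 9.5e-14) and 0.79 ± 0.05 in shFabp7 co-cultures (adjusted p = 1.4e-15). The difference between partners was 0.08 ± 0.05 at 24 h (adjusted p = 0.362) and 0.20 ± 0.05 at 48 h (adjusted p = 0.00202). The 48 h call was lost with upper-quartile scaling (0.11, adjusted p = 0.0765) and with library totals (0.11, adjusted p = 0.0635). The annotation places 361 bases of Ccnd3 exon opposite exons of Bysl, whose level averaged 109 and 139 CPM at 24 h and 39.3 and 58.9 CPM at 48 h. Reads of that overlap cannot be assigned, since no source used here names the strand setting of the counting. Ccnd2 and Cdk6 also overlap genes of the other strand, Gm43126 and Gm17590, whose group means were 0.356 to 0.761 CPM and 0.202 to 0.628 CPM. The third D-type cyclin gene, Ccnd1, was close to absent, with 0.16 to 1.6 CPM over the 12 libraries.

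**Figure D2:**
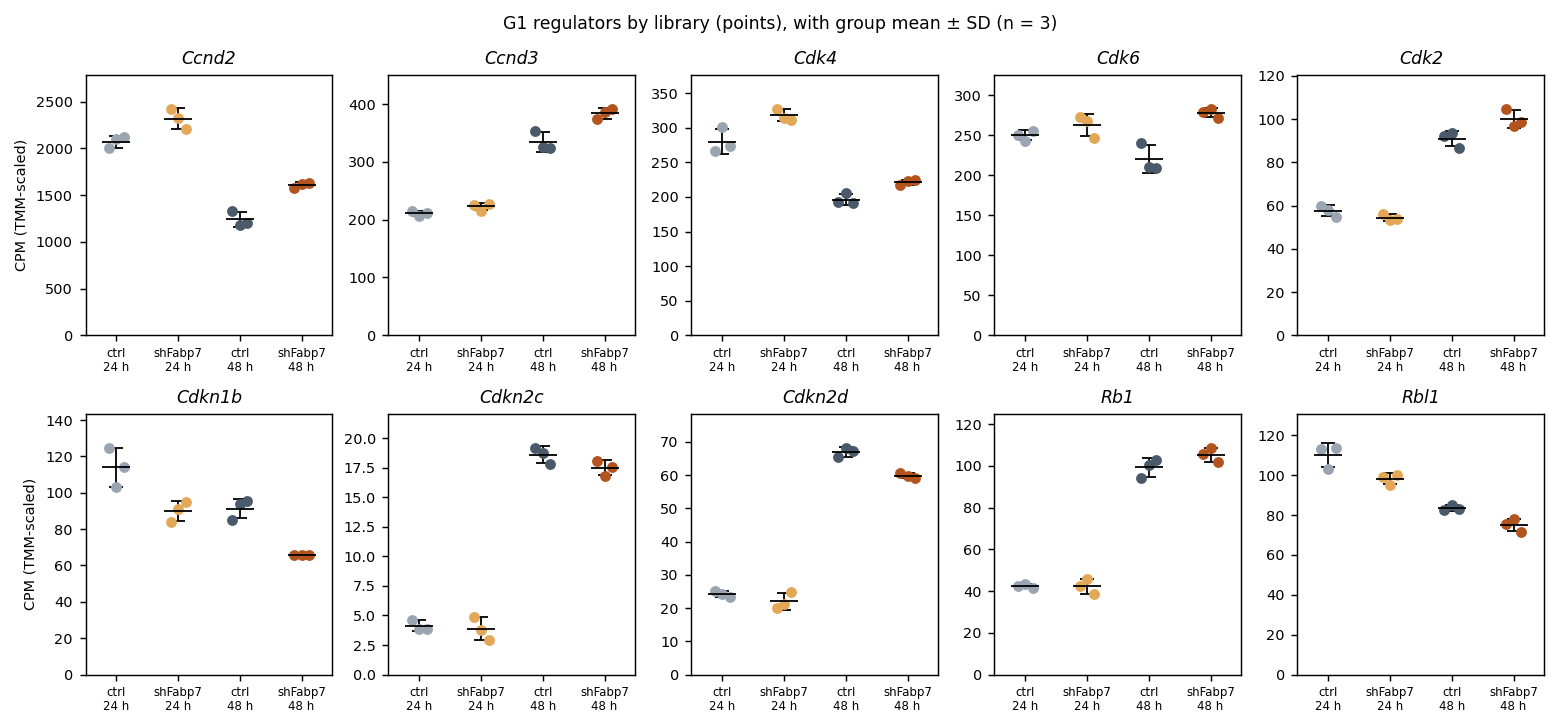
TMM-scaled CPM of each of the 10 genes in each of the 12 libraries (points), with the group mean and SD (n = 3); each panel has its own y axis starting at 0. The Cdkn1b and Rbl1 libraries of shFabp7 co-cultures lie below those of control co-cultures at both times; for Cdkn1b the group means are 114 against 89.9 CPM and 91.3 against 65.7 CPM.

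Cdk4 and Cdk6 encode the kinases that D-type cyclins activate. The Cdk4 libraries read 267, 301 and 274 CPM in control and 328, 314 and 311 CPM in shFabp7 co-cultures at 24 h. By 48 h these were 192, 205 and 191 CPM and 218, 223 and 224 CPM. The groups did not overlap at either time, and all 48 h libraries lay below all 24 h libraries. The partner difference was of similar size at both times, 0.18 ± 0.05 at 24 h (adjusted p = 0.0201) and 0.17 ± 0.05 at 48 h (adjusted p = 0.00868). Cdk4 fell over time by 0.52 ± 0.05 with each partner (adjusted p = 1e-10 and 8.6e-11). The 24 h partner call ended when replicate 1 of the control group (0.16, adjusted p = 0.094) or of the shFabp7 group (0.18, adjusted p = 0.0677) was left out, and with library totals (0.14, adjusted p = 0.0735), and the 48 h call ended with upper-quartile scaling (0.09, adjusted p = 0.188) and library totals (0.09, adjusted p = 0.177). Cdk4 shares 641 exonic bases with Tspan31 on the other strand, which passed neither partner test (log2 difference -0.03 at 24 h and 0.09 at 48 h) and rose over time.

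At 48 h Cdk6 had the second-largest upward partner difference of the 10 genes, after Ccnd2. In control co-cultures its libraries read 251, 243 and 255 CPM at 24 h and 240, 211 and 209 CPM at 48 h. In shFabp7 co-cultures they read 273, 268 and 247 CPM at 24 h and 279, 283 and 272 CPM at 48 h. The partners overlapped at 24 h (0.07 ± 0.05, adjusted p = 0.432) and were fully apart at 48 h (0.34 ± 0.05, adjusted p = 8.3e-06). Over time Cdk6 fell in control co-cultures by 0.18 ± 0.05 (adjusted p = 0.00355), and in shFabp7 co-cultures it read 0.08 ± 0.05 (adjusted p = 0.178). These time values are no larger than the shift between scalings: library totals gave 0.01 (adjusted p = 0.927) in control co-cultures and 0.23 (adjusted p = 0.00028) in shFabp7 co-cultures.

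Cdk2 encodes the kinase that acts with cyclin E at the end of G1. Its libraries read 59.7, 58.0 and 54.7 CPM in control and 56.1, 53.3 and 53.7 CPM in shFabp7 co-cultures at 24 h. The 48 h libraries read 92.3, 93.7 and 86.8 CPM and 105, 96.6 and 98.7 CPM. All 48 h libraries were above all 24 h libraries, by 0.66 ± 0.05 in control co-cultures (adjusted p = 9.3e-13) and 0.88 ± 0.05 in shFabp7 co-cultures (adjusted p = 8.3e-16). The partner difference was -0.08 ± 0.06 at 24 h (adjusted p = 0.4). At 48 h it was 0.14 ± 0.05 and barely passed (adjusted p = 0.0458). The 48 h call did not outlast most other settings: it was lost with library totals (0.05, adjusted p = 0.475) and when any 1 of the 12 libraries except control replicate 1 of 48 h was left out.

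Cdkn1b, a CIP/KIP inhibitor of cyclin-CDK complexes, was lower in shFabp7 co-cultures at both times. Its libraries read 125, 103 and 114 CPM in control and 83.8, 91.2 and 94.8 CPM in shFabp7 co-cultures at 24 h. At 48 h the values were 85.1, 93.5 and 95.2 CPM and 65.5, 66.0 and 65.6 CPM. The groups did not overlap at either time. The partner difference was -0.34 ± 0.06 at 24 h (adjusted p = 0.00058) and -0.48 ± 0.06 at 48 h (adjusted p = 3.1e-07), the largest in size of the 10 genes at each time. Over time Cdkn1b fell by 0.32 ± 0.06 in control co-cultures (adjusted p = 2.4e-05) and by 0.45 ± 0.06 in shFabp7 co-cultures (adjusted p = 9.3e-08). The fall in control co-cultures was not called with library totals (-0.13, adjusted p = 0.0701).

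The INK4 inhibitor genes Cdkn2c and Cdkn2d, whose products bind CDK4 and CDK6, had the largest rises over time. Cdkn2c read 4.64, 3.87 and 3.9 CPM in control and 4.9, 3.76 and 2.94 CPM in shFabp7 co-cultures at 24 h. By 48 h these were 19.2, 18.7 and 17.8 CPM and 18.1, 16.8 and 17.6 CPM. Partners overlapped at both times, with differences of -0.10 ± 0.14 at 24 h (adjusted p = 0.724) and -0.08 ± 0.10 at 48 h (adjusted p = 0.568). The rise over time was 2.17 ± 0.12 in control co-cultures (adjusted p = 1.5e-17) and 2.18 ± 0.12 in shFabp7 co-cultures (adjusted p = 3.1e-17).

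Cdkn2d read 25.1, 24.2 and 23.3 CPM in control and 20, 21.2 and 24.8 CPM in shFabp7 co-cultures at 24 h. The 48 h libraries read 65.4, 68.2 and 67.2 CPM and 60.7, 59.9 and 59.2 CPM. It rose by 1.47 ± 0.07 in control co-cultures (adjusted p = 8.4e-20) and by 1.44 ± 0.07 in shFabp7 co-cultures (adjusted p = 2.3e-19). Partners overlapped at 24 h (-0.14 ± 0.07, adjusted p = 0.22) and did not overlap at 48 h (-0.16 ± 0.06, adjusted p = 0.0429). That call was lost under RLE scaling (adjusted p = 0.0608), in DESeq2 (adjusted p = 0.0658) and without any 1 of the 48 h libraries except control replicate 1 (adjusted p from 0.0776 to 0.132). The INK4 genes that are not among the 10, Cdkn2a and Cdkn2b, averaged 0.707 to 1.53 CPM and 1.08 to 1.43 CPM over the groups and passed no test of partner or time.

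Rb1 and Rbl1 encode pocket proteins that bind E2F factors. Rb1 read 42.3, 43.2 and 41.4 CPM in control and 42.4, 45.7 and 38.6 CPM in shFabp7 co-cultures at 24 h. At 48 h the values were 94.1, 100 and 103 CPM and 106, 109 and 102 CPM. It more than doubled, by 1.23 ± 0.06 in control co-cultures (adjusted p = 6.1e-19) and 1.32 ± 0.06 in shFabp7 co-cultures (adjusted p = 1.1e-19). Partners overlapped at both times, with differences of -0.01 ± 0.06 at 24 h (adjusted p = 0.973) and 0.09 ± 0.06 at 48 h (adjusted p = 0.248). Rb1 shares 105 exonic bases with Rcbtb2 on the other strand, at 23.5 to 38.9 CPM over the group means.

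Rbl1 read 113, 103 and 114 CPM in control and 99.2, 95.2 and 100 CPM in shFabp7 co-cultures at 24 h. By 48 h these were 82.3, 85.1 and 83.1 CPM and 75.3, 77.8 and 71.7 CPM. It therefore went the opposite way to Rb1 over time, falling by 0.40 ± 0.05 in control co-cultures (adjusted p = 4.5e-08) and by 0.39 ± 0.05 in shFabp7 co-cultures (adjusted p = 8.3e-08). The partner difference was -0.16 ± 0.05 at each time (adjusted p = 0.0421 at 24 h and 0.0236 at 48 h), with no overlap of libraries. The 24 h call was lost in 9 of the 12 fits that left out a library, under RLE scaling (-0.13, adjusted p = 0.0906) and in DESeq2 (-0.13, adjusted p = 0.0509). The 48 h call ended when replicate 2 of the control group was left out (-0.14, adjusted p = 0.0897), and likewise for replicate 1 (-0.16, adjusted p = 0.0559) and replicate 3 (-0.12, adjusted p = 0.15) of the shFabp7 group. The third pocket protein gene, Rbl2, rose over time from 128 ± 4.04 to 230 ± 3.3 CPM in control co-cultures (SD, n = 3) and from 130 ± 4.69 to 240 ± 4.29 CPM in shFabp7 co-cultures.

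Whether the partner difference itself changed between 24 h and 48 h was tested as an interaction in the same fit. Of the 10 genes, Cdk6 alone passed, with a partner difference larger by 0.27 ± 0.08 at 48 h (adjusted p = 0.0343). Over all genes 5.6% were called, 4.43% with a more positive and 1.17% with a more negative difference at 48 h. The next members were Ccnd2 (0.22 ± 0.08, adjusted p = 0.0895) and Cdk2 (0.22 ± 0.08, adjusted p = 0.0938), and for Cdk4 the difference was -0.01 ± 0.07 (adjusted p = 0.984). The Cdk6 call was lost under RLE scaling (0.25, adjusted p = 0.0557), with library totals (0.23, adjusted p = 0.0821) and in all but 1 of the 12 fits that left out a library; DESeq2 called both Cdk6 and Ccnd2. The same value compares the change of Cdk6 over time in control co-cultures with that in shFabp7 co-cultures.

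The separation of the libraries in CPM was counted as well. At 24 h the 3 shFabp7 co-cultures lay fully above the 3 control co-cultures for 2 of the 10 genes and fully below for 2, beside 27.5% of all genes tested in either direction. At 48 h they lay fully above for 5 and below for 3, against 25.7% and 18.4% of all genes (44.0%). Over time, the 48 h control co-cultures lay fully above those of 24 h for 5 genes and below for 5, against 36.7% and 32.0% (68.6%). In shFabp7 co-cultures these were 5 and 4 genes, against 38.5% and 32.9% (71.4%).

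Compared per length, the order of the 10 genes changed between the times. In control co-cultures at 24 h, Ccnd2 led with 309 ± 9.54 CPM per kb (SD, n = 3), followed by Cdk4 with 137 ± 8.68 and Ccnd3 with 86.2 ± 1.82. Then came Cdkn1b (25.0 ± 2.38), Cdk2 (23.8 ± 1.06), Rbl1 (22.6 ± 1.24) and Cdk6 (21.7 ± 0.559), each adjacent pair of which lay within its spread. Cdkn2d (16.4 ± 0.614), Rb1 (9.09 ± 0.196) and Cdkn2c (1.54 ± 0.163) followed, each below the one before by more than its spread. In control co-cultures at 48 h, Ccnd2 (184 ± 12.3 CPM per kb), Ccnd3 (137 ± 6.87) and Cdk4 (95.5 ± 3.81) led, followed by Cdkn2d (45.4 ± 0.978) and Cdk2 (37.7 ± 1.52). Rb1 (21.3 ± 0.982), Cdkn1b (20.1 ± 1.2) and Cdk6 (19.1 ± 1.51) again lay within the spread of their neighbours, and Rbl1 (17.2 ± 0.296) and Cdkn2c (6.91 ± 0.262) were last. In shFabp7 co-cultures at 24 h, Ccnd2 (346 ± 16.1), Cdk4 (155 ± 4.32) and Ccnd3 (90.9 ± 2.55) led, followed by Cdk6 (22.8 ± 1.22), Cdk2 (22.6 ± 0.626), Rbl1 (20.2 ± 0.543) and Cdkn1b (19.8 ± 1.24). Cdkn2d (14.9 ± 1.69), Rb1 (9.07 ± 0.765) and Cdkn2c (1.44 ± 0.366) were last there. In shFabp7 co-cultures at 48 h, the order was Ccnd2 (240 ± 3.92 CPM per kb), Ccnd3 (157 ± 3.82) and Cdk4 (108 ± 1.58). Cdk2 (41.5 ± 1.78) and Cdkn2d (40.6 ± 0.511) lay within their spread, Cdk6 (24.1 ± 0.498) and Rb1 (22.6 ± 0.726) came after them, and Rbl1 (15.4 ± 0.635), Cdkn1b (14.4 ± 0.0599) and Cdkn2c (6.52 ± 0.234) were last. Over time Ccnd3 passed Cdk4 with each partner, and Cdkn1b went from the fourth to the seventh place in control and from the seventh to the ninth in shFabp7 co-cultures. Except in shFabp7 co-cultures at 48 h, Cdkn1b lay within the spread of a neighbour, so its exact place there is not resolved in those groups.

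Shares within a family are given per length. Among the INK4 inhibitors Cdkn2d held 84.6% at 24 h and 84.2% at 48 h in control co-cultures and 81.5% and 82.3% in shFabp7 co-cultures, and Cdkn2c 7.92% and 12.8%, then 7.99% and 13.2%. Of the D-type cyclin level per length, Ccnd2 held 78.2% in control co-cultures at 24 h and 57.3% at 48 h, and 79.1% and 60.4% in shFabp7 co-cultures. Ccnd3 held most of the rest, 21.8% and 42.6%, then 20.8% and 39.5%. Among the 3 kinases, Cdk4 held 75.0% and 62.7% in control co-cultures, while Cdk2 went from 13.1% to 24.8%. Among the CIP/KIP inhibitors, Cdkn1b held 43.0% in control co-cultures and 30.1% in shFabp7 co-cultures at 24 h, and 14.0% and 7.92% at 48 h. The rest of that family was almost all Cdkn1a, the p53-inducible inhibitor, which read 74.1, 93.1 and 96.7 CPM in control and 118, 136 and 113 CPM in shFabp7 co-cultures at 24 h. The 48 h libraries read 349, 316 and 330 CPM and 437, 460 and 464 CPM. Cdkn1a and Cdkn1b thus differed between partners in opposite directions, Cdkn1a by 0.47 ± 0.08 at 24 h (adjusted p = 0.00121) and 0.45 ± 0.08 at 48 h (adjusted p = 0.00014). Among pocket proteins Rbl1 went from 39.2% to 20.1% in control co-cultures, and Rb1 from 15.8% to 25.0%.

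**Figure D3:**
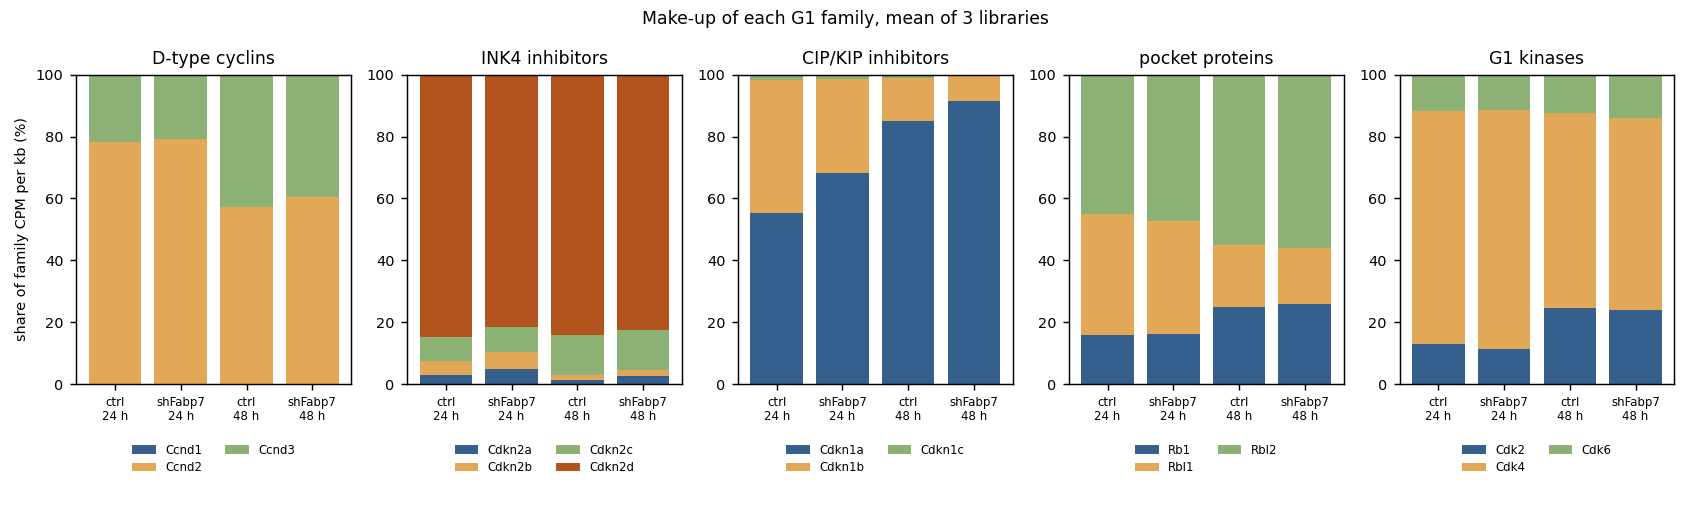
Share of each gene in the summed CPM per kb of its family (stacked to 100%), as the mean of 3 libraries in each of the 4 groups. Cdkn1b goes from 43.0% to 7.92% of the CIP/KIP level between the leftmost and rightmost bars, and Ccnd3 from 21.8% to 39.5% of the D-type cyclin level.

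The summed D-type cyclin level was 396 CPM per kb in control co-cultures and 437 in shFabp7 co-cultures at 24 h, and 321 and 397 at 48 h. Over time the D-type total was 0.812 times the 24 h level in control co-cultures and 0.909 times in shFabp7 co-cultures, but 1.01 times in shFabp7 co-cultures when scaled by library totals. The summed INK4 level at 48 h was 2.78 times that at 24 h in control and 2.7 times in shFabp7 co-cultures, and the summed CIP/KIP level 2.46 and 2.77 times. Between partners the CIP/KIP level was 58.4 (control) and 65.7 CPM per kb (shFabp7) at 24 h, and 144 and 182 at 48 h. The 24 h partners overlapped with library totals, where the ratio was 1.09. The summed pocket protein level at 48 h was 1.48 and 1.56 times that at 24 h. Its partner ratio at 48 h stood above 1 under TMM (85.3 and 86.7 CPM per kb) and below 1 with library totals (0.959).

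Ratios of counts within a library do not depend on scaling, and are given as a description with no test. The Ccnd2 to Ccnd3 ratio averaged 9.84 ± 0.485 (SD, n = 3) in control co-cultures and 10.4 ± 0.596 in shFabp7 co-cultures at 24 h, with overlap. At 48 h it averaged 3.69 ± 0.0664 and 4.2 ± 0.0376, with no overlap. The Cdkn1b to Cdk2 ratio, an inhibitor against a kinase it restrains, averaged 1.98 ± 0.179 and 1.66 ± 0.144 at 24 h, and 1.01 ± 0.0881 and 0.657 ± 0.03 at 48 h. Its shFabp7 co-cultures lay below the control co-cultures at both times, by 0.26 and 0.61 on the log2 scale. This ratio leaves out Cdkn1a, and the summed CIP/KIP level given above was higher in shFabp7 co-cultures at both times. The Cdk6 to Cdk4 ratio averaged 0.894 and 0.827 at 24 h and 1.12 and 1.26 at 48 h, with partners overlapping at each time and 48 h above 24 h with each partner. The Cdkn2d to Cdkn2c ratio averaged 5.89 and 6.05 at 24 h and 3.61 and 3.42 at 48 h, again with partners overlapping at each time.

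**Figure D4:**
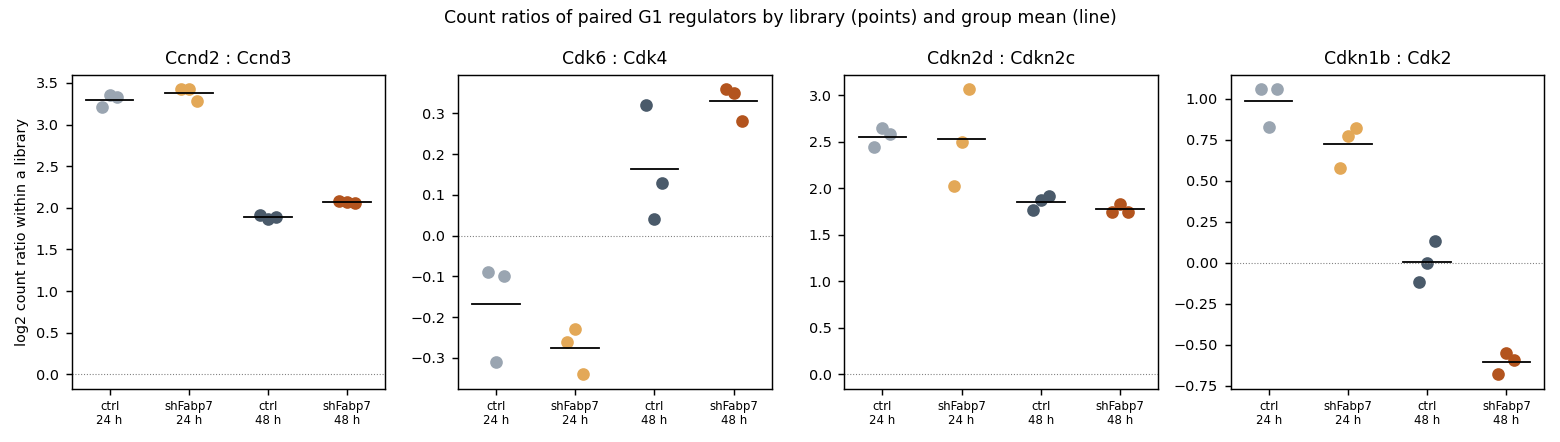
Log2 ratio of the counts of paired genes within each library (points), with the group mean (line), in the 4 groups. The Cdkn1b to Cdk2 ratio is lower in shFabp7 co-cultures at each time and lower at 48 h than at 24 h with each partner, while the Ccnd2 to Ccnd3 ratio separates the partners at 48 h and overlaps at 24 h.

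Other genes of the pathway were followed in 4 lists, which like the 10 genes were chosen with earlier results of these data known. Their counts beside all genes are descriptions. Cdkn1c, Cdk1, Tfdp1, Tfdp2, E2f4, E2f5, E2f6, Cks1b, Cul1, Usp28, Rnf123, Mcm2 and Mcm4 are named because a count turns on them, after their values were seen. Of 10 further cyclins, kinases and inhibitors, 2 were higher in shFabp7 co-cultures at 24 h (Ccne2 and Cdkn1a) and none was lower. Over all genes 6.22% were called higher and 4.65% lower at 24 h, and 19.9% and 11.6% at 48 h. At 48 h 4 were higher (Ccna2, Ccne1, Cdk1 and Cdkn1a) and 1 lower, with a median difference of 0.28 against 0.01 over all genes. The lower gene was the CIP/KIP inhibitor Cdkn1c (-0.85 ± 0.19, adjusted p = 0.00054) at 3.21 and 1.78 CPM. The cyclin E genes, partners of CDK2, were Ccne1, with 0.20 ± 0.07 at 24 h (adjusted p = 0.0519) and 0.35 ± 0.06 at 48 h (adjusted p = 1.5e-05), and Ccne2, with 0.85 ± 0.21 at 24 h (adjusted p = 0.0137) and 0.34 ± 0.14 at 48 h (adjusted p = 0.0623). The 24 h call of Ccne2 ended without replicate 2 of the shFabp7 group (0.72, adjusted p = 0.0503), and Ccne1 passed at 24 h in DESeq2 (0.23, adjusted p = 0.011). Ccne2 was low at 24 h, at 2.2 ± 0.676 and 3.96 ± 0.741 CPM (SD, n = 3). Ccna2, the cyclin of S phase and G2, went from 7.31 ± 1.38 to 97.5 ± 5.26 CPM over time in control co-cultures, a rise of 3.73 ± 0.08 (adjusted p = 1.4e-26). Over time 7 of the 10 rose in control co-cultures and 6 in shFabp7 co-cultures, and none fell. Over all genes 35.8% and 35.9% were called higher over time, and 32.0% and 30.2% lower.

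Of 11 further pocket protein and E2F or DP genes, 5 were higher in shFabp7 co-cultures at 24 h (E2f1, E2f3, E2f4, E2f6 and Tfdp1) and none lower. Over all genes 6.22% were higher and 4.65% lower at 24 h, and 19.9% and 11.6% at 48 h. At 48 h 7 were higher, and 1 was lower, the DP factor gene Tfdp2 (-0.26 ± 0.06, adjusted p = 0.00073). E2f1, an activating E2F, was higher by 0.39 ± 0.08 at 24 h (adjusted p = 0.00118) and by 0.33 ± 0.07 at 48 h (adjusted p = 0.0003), and E2f3 by 0.28 ± 0.07 (adjusted p = 0.0132) and 0.36 ± 0.07 (adjusted p = 8.3e-05). The 24 h call of E2f3 ended without replicate 1 of the shFabp7 group (0.25, adjusted p = 0.0605). Over time 8 of the 11 rose with each partner, and E2f4, E2f5 and E2f6 fell, by 0.62, 0.59 and 0.65 in control co-cultures. Over all genes 35.8% rose and 32.0% fell in control co-cultures, and 35.9% and 30.2% in shFabp7 co-cultures. E2f7 and E2f8, repressors that are themselves E2F targets, rose by 3.11 and 3.08 in control co-cultures.

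Of 16 S phase genes known as E2F targets, 9 were higher in shFabp7 co-cultures at 24 h and none lower, beside 6.22% and 4.65% of all genes. At 48 h 12 were higher and none lower, beside 19.9% and 11.6% of all genes. With library totals 5 were higher at 24 h and 10 at 48 h, and none lower, while 604 and 2157 of all genes were called higher. The median difference of the 16 genes was 0.20 at 24 h and 0.32 at 48 h, against -0.004 and 0.014 over all genes. Over time 14 rose in control and 13 in shFabp7 co-cultures, and the replication helicase gene Mcm2 fell, by 0.43 and 0.21. Over all genes 35.8% and 35.9% rose, and 32.0% and 30.2% fell. With library totals 15 rose and none fell in shFabp7 co-cultures, beside 7483 and 3789 of all genes. Of 18 genes for the activation and turnover of G1 complexes, 2 were higher (Cdc25a and Cks1b) and 1 lower (Usp28) in shFabp7 co-cultures at 24 h. At 48 h 7 were higher and 2 lower, Usp28 and Rnf123 (2 and 2 with library totals). The shares over all genes at each time are those given for the S phase genes. Among them Cdc25a, the phosphatase that activates CDK2, was higher by 0.28 ± 0.06 at 24 h (adjusted p = 0.00346) and by 0.39 ± 0.06 at 48 h (adjusted p = 5.1e-06). Skp2, which marks CDKN1B protein for degradation, differed by 0.04 at 24 h (adjusted p = 0.867) and was higher by 0.30 ± 0.09 at 48 h (adjusted p = 0.0076). That call was lost with upper-quartile scaling (0.21, adjusted p = 0.0583), with library totals (0.22, adjusted p = 0.0559), and without replicate 3 of the control group (0.26, adjusted p = 0.0501) or replicate 1 of the shFabp7 group (0.24, adjusted p = 0.0673). Over time 5 genes of this list were higher and 8 lower in control co-cultures, beside 35.8% and 32.0% of all genes. In shFabp7 co-cultures 6 were higher and 7 lower, beside 35.9% and 30.2%. Library totals gave 9 higher and 6 lower with each partner, beside 7746 and 3781 of all genes in control co-cultures. In the interaction the 4 lists held 3 calls, while 5.6% of all genes were called. Cdkn1c had a more negative partner difference at 48 h (-0.92 ± 0.27, adjusted p = 0.0391). Cul1 (0.29 ± 0.07, adjusted p = 0.0125) and Mcm4 (0.32 ± 0.07, adjusted p = 0.00623) had a more positive one.

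**Figure D5:**
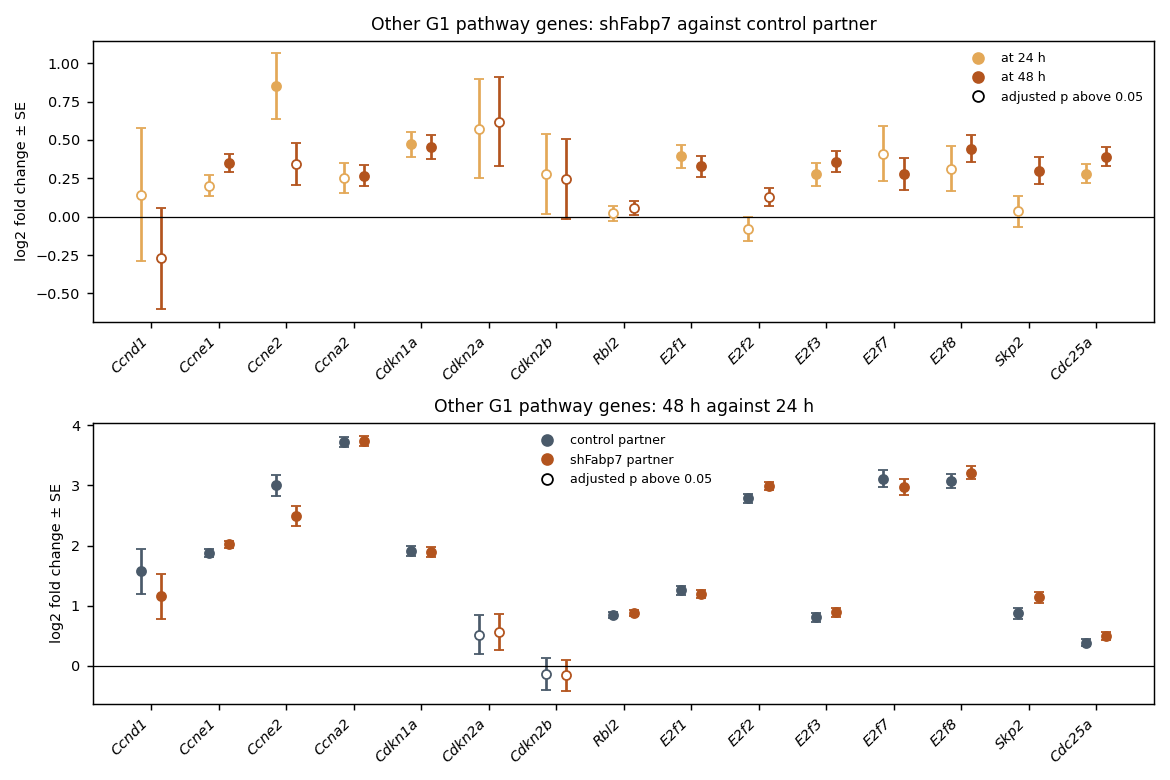
Log2 fold change ± SE of 15 other genes of the G1 pathway, shFabp7 against control partner (top, at 24 h and 48 h) and 48 h against 24 h (bottom, with each partner); open symbols have an adjusted p above 0.05. Cdkn1a, E2f1, E2f3 and Cdc25a are filled and above 0 at both times in the top panel, and Ccna2 is the highest gene of the bottom panel, at 3.73 and 3.75.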

How the data were processed

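RNA of 12 T cell libraries was sequenced, 3 in each of 4 groups defined by partner and time in the sample titles. The authors deposited 1 table of raw HTSeq counts per gene symbol. The submitters' processing notes name CASAVA 1.8.2, TopHat2 2.0.13, HTSeq 0.6.1p1 and GRCm39. Their order, the strand setting and the annotation release are not given in the sources used here. 

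Counts were filtered with filterByExpr (minimum count 10, minimum total 15), scaled by TMM on totals of the genes kept, and fitted across all 12 libraries with edgeR 4.0.16 (robust quasi-likelihood, 1 coefficient per group, R 4.3.3). The 5 comparisons were Benjamini-Hochberg adjusted over 16945 genes, with a threshold of 0.05. SE is the log2 fold change divided by the square root of F. The 3 groups of settings tried were scaling (RLE, upper quartile, library totals, TMM on all genes), the filter and the model (groups alone, replicate block, a minimum fold of 1.2, DESeq2 1.42.0). Each library was also left out in turn. The procedure was tested on simulated data. Exon lengths and overlaps came from GENCODE M21 on GRCm38. The 10 members, the 15 other genes named with values, and all lists were chosen with earlier results of these data known. Overlapping neighbours were added after seeing their values. Cdkn1c and the other list genes on which a count turns were likewise named after their values were seen. All list genes were tested.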

Additional observations from a re-analysis of the deposited data

Results flagged for a closer look

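The partner difference of Cdk6 was larger at 48 h than at 24 h by 0.27 ± 0.08 on the log2 scale (interaction in edgeR, adjusted p = 0.0343). Ccnd2 and Cdk2 were close, at 0.22 ± 0.08 each, and did not pass. The Cdk6 call was lost under RLE scaling, with library totals and in most fits that left out a library. With the control partner the Cdk6 group means were 250 CPM at 24 h and 220 CPM at 48 h, and with the shFabp7 partner 263 and 278 CPM. Over the alternatives and left-out libraries the value ran from 0.18 to 0.33 and its adjusted p from 0.00077 to 1.0.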

How the results depend on the processing

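Of the 10 genes' values in 5 comparisons, 956 gene-by-setting values kept direction and side of the threshold, 80 lost the threshold, 13 gained it and 41 changed sign. At 24 h, 3 genes differed between partners, beside 1842 of all 16945 genes. A minimum fold of 1.2 left 0, beside 14 of all genes. Leaving out 1 library gave 1 to 4 (1 without replicate 1 of either 24 h group), beside 949 to 2525 of all genes. At 48 h, 8 differed, beside 5352 of all genes. Upper-quartile scaling left 5 (5320 of all genes), library totals 5 (5325) and the minimum fold 1, Cdkn1b (1005). Leaving out 1 library gave 5 to 8 (5 without control partner replicate 2 or shFabp7 partner replicate 1 or 3). Over all genes it gave 4300 to 5463. The interaction called 1, beside 949 of all genes. RLE, upper quartile, library totals, TMM on all genes (added after seeing the data), no filter and the minimum fold each gave 0. Over all genes the minimum fold called 13 and the other settings of that row 662 to 824. DESeq2 gave 2, beside 1180 of all genes. Leaving out 1 library gave 0 to 2 (2 without control partner replicate 1 of 48 h), beside 319 to 1680. Over time the counts stayed at 10 and 9 with any library left out, beside 10908 to 11592 and 10612 to 11466 of all genes. In the 4 pathway lists the minimum fold left 0 calls at 24 h. At 48 h it left 1 higher and 1 lower among the further cyclins, kinases and inhibitors and 5 higher among the S phase genes. Over all genes it left 693 higher and 312 lower at 48 h. DESeq2 called 5 of the further cyclins, kinases and inhibitors at 24 h, beside 2534 of 29108 genes. The cause of these changes was not tested.

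Values near 0 changed sign. For the partner difference at 24 h, Rb1 read 0.02 (RLE, no filter, DESeq2) and 0.03 (TMM on all genes), Rbl2 read -0.0027 (upper quartile) and -0.02 (totals), and Skp2 read -0.01 (totals). At 48 h Rbl2 read -0.03 with upper quartile and with totals. In the interaction, Cdkn2c read -0.003 (RLE), -0.05 (upper quartile), -0.03 (totals, no filter), -0.06 (TMM on all genes) and -0.00012 (DESeq2), and Rbl1 read -0.01 (RLE, DESeq2), -0.05 (upper quartile), -0.03 (totals, no filter), -0.06 (TMM on all genes) and -0.0021 (stricter filter). Over time with the control partner, library totals gave 0.01 for Cdk6 and 0.06 for Cdkn2b. With 1 library left out, sign changes fell within -0.29 to 0.09 (Cdkn2c), -0.04 to 0.07 (Rb1) and -0.18 to 0.55 (Ccnd1) at 24 h, -0.42 to 0.08 (Ccnd1) at 48 h, -0.33 to 0.01 over time (Cdkn2b), and, in the interaction, -0.11 to 0.03 (Cdk4), -0.2 to 0.17 (Cdkn2c), -0.14 to 0.03 (Cdkn2d), -0.02 to 0.12 (Rb1) and -0.07 to 0.04 (Rbl1).

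Same-numbered libraries did not deviate together (correlations from -0.097 to 0.025), so the numbers were not taken to pair them. With the replicate block, 2 of the 10 genes were called at 24 h, 7 at 48 h, 1 in the interaction, and 10 and 9 over time. Over all genes these counts were 1777, 5195, 862, 11388 and 11120. Rbl1 at 24 h (adjusted p = 0.056) and Cdkn2d at 48 h (adjusted p = 0.0537) were the calls lost. Depth limits Ccnd1, Cdkn2a and Cdkn2b most, at under 2 CPM.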
